A study of Mus musculus with 18 samples.

Results

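The genes followed here encode the skeletal muscle versions of sarcomere and calcium-release proteins, and their chromatin was examined in the mouse heart. There were 10 of them, namely *Myh1*, *Myh2*, *Myh3*, *Myh4*, *Tnni2*, *Tnnt3*, *Actn3*, *Ryr1*, *Casq1* and *Atp2a1*. A region belonged to a gene when the deposited table gave it that gene's symbol, or when it had no symbol and lay inside the interval that the table gives for the gene. Of the 101256 regions of the table, called union peaks here, 25 belonged to these genes. The symbol chose 13 of them, and position inside *Myh3* (3 peaks) or *Ryr1* (9 peaks) chose the other 12. The peaks fell on 7 of the 10 genes, with 11 on *Ryr1*, 4 on *Casq1*, 4 on *Myh3*, 2 on *Atp2a1*, 2 on *Tnnt3*, 1 on *Tnni2* and 1 on *Myh4*. No peak was found for *Myh1*, *Myh2* or *Actn3*. The peaks were examined for whether RNA polymerase II and CTCF lay above the IgG background at these genes, and for differences of either protein between the genotypes.

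The libraries were ChIP-seq of heart, which the methods specify as ventricles of adult mice, in 3 genotypes. WT hearts were compared with *Trdn-as* KO hearts, where a polyadenylation signal placed in the first exon stops the antisense RNA of the triadin gene, and with *Mettl3* KO hearts. The label of the last group is Mettl3lox/lox:alphaMHC-MerCreMerpos, meaning a floxed m6A methyltransferase gene that cardiomyocytes, but not other heart cells, lose when tamoxifen activates a Cre driven by the *Myh6* promoter. The methods name tamoxifen-treated Mettl3lox/lox mice as the controls of that line, while the labels of these libraries say only WT. Each genotype had 2 libraries for RNA polymerase II, 2 for CTCF, which served as the positive control, and 1 for IgG. The methods describe chromatin of 2 hearts and do not say that replicate libraries came from different animals, so p-values measure the spread between libraries, which may be technical. The 3 input libraries were not analysed here.

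Striated muscle builds its sarcomeres from paralogous genes. Fast skeletal fibres use their own myosin heavy chains, troponins and alpha-actinin, and they release calcium through RYR1, store it on calsequestrin 1 and pump it back with SERCA1. The heart uses MYH6 and MYH7, TNNI3, TNNT2, ACTN2, RYR2, calsequestrin 2 and SERCA2a for the same tasks. RNA polymerase II gathers at the starts of transcribed genes, whereas CTCF binds DNA by its own sequence preference, organises chromatin loops and is found at many sites whether or not the nearby gene is transcribed.

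The promoters below are shown because they pair the myosins, which had no RNA polymerase II above IgG or no peak at all, with *Casq1* and *Atp2a1*, which had it. Sequences are from RefSeq in GRCm38.p6, written 5′ to 3′ on the gene's strand. The RefSeq table holds 7 of the 10 genes, without *Tnni2*, *Tnnt3* and *Actn3*. It was searched from 250 bases before to 50 bases after each start. The peaks are in GRCm39, and the promoters were not placed in that build. In the 80 bases of each myosin, capitals mark TATAAA, the core promoter element bound by the TATA-binding protein. The stretches are chr11:67078230-67078309 (*Myh3*), chr11:67170977-67171056 (*Myh2*), chr11:67200032-67200111 (*Myh1*) and chr11:67237742-67237821 (*Myh4*), all on the plus strand.
Myh3: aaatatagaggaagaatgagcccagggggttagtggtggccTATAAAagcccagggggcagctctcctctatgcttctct
Myh2: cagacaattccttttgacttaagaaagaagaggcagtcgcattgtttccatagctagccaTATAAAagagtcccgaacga
Myh1: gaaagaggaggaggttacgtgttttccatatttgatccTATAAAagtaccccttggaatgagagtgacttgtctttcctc
Myh4: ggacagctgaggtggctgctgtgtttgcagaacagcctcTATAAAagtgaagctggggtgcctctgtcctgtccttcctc

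In the 280 bases of *Casq1* (chr1:172219866-172220145, minus strand) and *Atp2a1* (chr7:126463044-126463323, minus strand), capitals mark the E-box CANNTG, the sequence recognised by MYOD and other basic helix-loop-helix factors.
Casq1: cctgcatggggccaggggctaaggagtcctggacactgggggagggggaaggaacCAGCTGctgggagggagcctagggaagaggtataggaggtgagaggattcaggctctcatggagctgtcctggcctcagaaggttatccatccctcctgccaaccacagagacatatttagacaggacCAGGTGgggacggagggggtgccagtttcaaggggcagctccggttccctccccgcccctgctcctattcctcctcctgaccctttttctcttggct
Atp2a1: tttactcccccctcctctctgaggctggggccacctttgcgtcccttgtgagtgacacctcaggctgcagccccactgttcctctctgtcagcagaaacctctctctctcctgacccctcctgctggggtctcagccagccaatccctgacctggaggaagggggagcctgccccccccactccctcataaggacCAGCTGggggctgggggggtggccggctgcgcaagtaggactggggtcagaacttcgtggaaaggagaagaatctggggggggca

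All 4 myosin promoters held TATAAA on the gene's strand. The marked match began 29 bases before the start of *Myh3*, 31 before that of *Myh4* and 32 before that of *Myh1*, and 11 bases after the RefSeq start of *Myh2*. Counting both strands, *Myh1* held 1 further match and *Myh4* 2, farther upstream. The motif was absent from the windows of *Ryr1*, *Casq1* and *Atp2a1*, and 8.88% of the 27025 promoters of the table held it on the gene's strand (14.2% on either strand). CANNTG was present in *Casq1* (2 matches), *Atp2a1* (1), *Myh3* (1) and *Myh4* (3) and in 72.1% of all promoters. Its form CAGCTG, which overlaps CANNTG, lay 195 bases before the start of *Casq1*, 55 before *Atp2a1* and 67 before *Myh4*, and 16.1% of all promoters held it. A stretch of the core CTCF motif had no match on either strand in any of the 7 windows, against 2.41% of all promoters. A MEF2 box was found in *Myh1* and *Myh4* (3.26% of all promoters) and a CArG box in *Myh4* (1.57%), both MEF2 boxes overlapping a farther upstream TATAAA. The GC content was 38.0% in *Myh1*, 42.3% in *Myh2*, 43.0% in *Myh4*, 48.0% in *Myh3*, 56.7% in *Ryr1*, 60.3% in *Casq1* and 62.3% in *Atp2a1*, with a median of 52.7% over all promoters.

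The authors counted reads per peak and divided them by a DESeq2 size factor per library, and the deposited values are this signal, rounded to whole numbers. The value of 1 read was estimated from the spacing of the values. It ranged from 0.945 to 2.04 among RNA polymerase II libraries, from 0.284 to 0.458 among CTCF libraries and from 2.55 to 6.57 among IgG libraries. To set the targets against IgG, values were turned into reads per 1000000 uniquely mapped reads (RPM). Whether the mapped totals were counted before or after duplicates were removed is not given in the sources used here, and the effect of unequal duplicate shares on RPM and on the differences from IgG was not tested. Union peaks held 35.5% to 42.5% of the reads in 5 RNA polymerase II libraries, 32.1% to 39.0% in the CTCF libraries and 4.91% to 5.71% in the IgG libraries. The second *Trdn-as* KO library for RNA polymerase II stood apart with 18.6%. The 6 peaks on the Y chromosome were at 0 in all 5 *Trdn-as* KO libraries and summed to 50 to 326 in the other 10, so sex and this genotype cannot be told apart. Cardiomyocyte markers (*Myh6*, *Tnnt2*, *Tnni3*, *Actc1*, *Ryr2*, *Nppa*, *Pln*) had RNA polymerase II above IgG at 7 of 7 promoters, with a summed level of 803 to 2259 RPM beside 62.4 to 89.6 RPM of IgG. Markers of satellite cells and myoblasts had peaks at 2 of 4 genes, with summed RNA polymerase II of 0.456 to 1.81 RPM beside 0.404 to 1.13 RPM of IgG. Of these peaks, RNA polymerase II was above IgG at *Myog* but not at *Myod1*, and CTCF at both, whereas *Pax7* and *Myf5* had no peak. In these bulk samples, fewer cells of a type and less polymerase per cell cannot be told apart.

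RNA polymerase II lay above IgG in at least 1 peak of 5 of the 7 genes with peaks, and in the sum over all peaks of 4 of them, without *Ryr1*. The largest difference was at *Atp2a1*, which encodes the fast-twitch calcium pump SERCA1, followed by *Casq1* and *Tnnt3*. Each of the 25 peaks lay inside its gene or upstream of its start, and those of *Atp2a1* and *Tnnt3* cannot be credited to these genes alone. *Tnni2* and 1 peak inside *Ryr1* were also above IgG, whereas no peak of *Myh3* or *Myh4* was. In a limma fit of log2(RPM + 0.2) over the 6 target and 3 IgG libraries, 8 of the 25 peaks (32.0%) were higher for RNA polymerase II at an adjusted p below 0.05, against 41.1% of all 101256 peaks. By gene these were 3 of 4 peaks of *Casq1*, both peaks of *Atp2a1*, 1 of 2 of *Tnnt3*, the only peak of *Tnni2* and 1 of 11 of *Ryr1*. Another 2 peaks, 1 in *Myh3* and 1 in *Ryr1*, were lower than IgG, against 1.13% of all peaks. The median log2 difference was 0.09 over the 25 peaks and 0.75 over all peaks. On the deposited scale, which moved the median of all peaks by -0.62, 3 of the 25 were higher, against 21.0% of all peaks, namely the upstream *Casq1* peak, the nearer *Atp2a1* peak and the main *Tnnt3* peak.

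For CTCF, 24 of the 25 peaks (96.0%) were above IgG, against 89.4% of all peaks. On the deposited scale, which moved the median of all peaks by -1.15, it was 14 of the 25, against 30.2% of all peaks. The exception was the outer of the 2 upstream peaks of *Tnnt3*, where the log2 difference was -0.05 (95% interval -0.70 to 0.60). Over the 25 peaks the median log2 difference of CTCF was 2.50, against 1.72 over all peaks. The peaks with RNA polymerase II above IgG were longer than the others, with a median of 1043.5 nt for the 8 and 367 nt for the other 17, beside 416 nt for all union peaks. Longer peaks collect more reads, and the part of length in the calls was not tested.

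**Figure D1:**
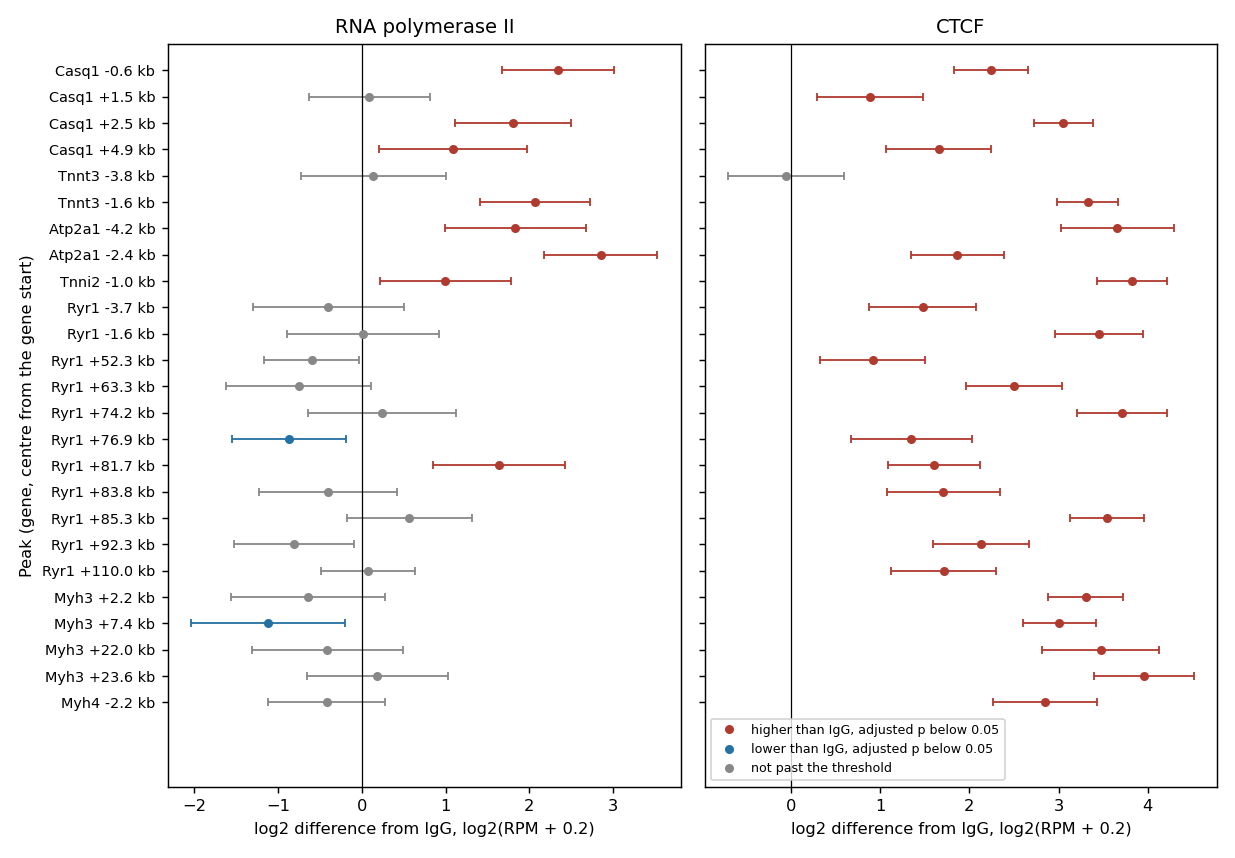
Each row is 1 of the 25 peaks, named by its gene and the distance of its centre from the gene start in kb, and the x axes give the log2 difference from IgG on log2(RPM + 0.2) with its 95% interval. For RNA polymerase II 8 peaks lie to the right of 0 past the threshold and 2 to the left, and for CTCF 24 of 25 lie to the right.

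*Myh3* and *Myh4* carried CTCF but no RNA polymerase II above IgG, and the other myosins, *Myh1* and *Myh2*, had no peak. *Myh3* (ENSMUSG00000020908), the embryonic myosin heavy chain, lies on the plus strand of chromosome 11 from 66969126 to 66993117 in GRCm39, and its 4 peaks are all inside the gene. The peak with both the most RNA polymerase II and the most CTCF spans 66975926 to 66977077. RNA polymerase II there was 0.338 and 0.543 RPM (WT), 0.722 and 0.552 (*Trdn-as* KO) and 0.608 and 0 (*Mettl3* KO), beside 0.783, 1.53 and 1.07 RPM in the IgG libraries of the same genotypes. Every RNA polymerase II library was thus below every IgG library, and this is the *Myh3* peak called lower than IgG (log2 difference -1.12, SE 0.46, adjusted p = 0.0433 in limma). That call was lost without either *Trdn-as* KO library, without WT replicate 1 or *Mettl3* KO replicate 2, or without any 1 IgG library, with adjusted p from 0.0698 to 0.272. CTCF was 11.2 and 9.38 RPM (WT), 9.78 and 11.7 (*Trdn-as* KO) and 11.2 and 8.38 (*Mettl3* KO), above IgG in all 6 libraries. At the other 3 peaks of *Myh3* the log2 differences of RNA polymerase II from IgG ran from -0.64 to 0.19 and those of CTCF from 3.30 to 3.96. The last 2 of them are assigned by the table to another gene, ENSMUSG00000098855, which has no symbol.

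*Myh4* (ENSMUSG00000057003), the myosin heavy chain of the fastest skeletal fibres, lies on the plus strand from 67128855 to 67151272, and its peak at 67126484 to 67126850 begins and ends upstream of it, 2005 nt away at the nearest. RNA polymerase II was at 0 in 3 libraries, 1 of each genotype, and at 0.0905 RPM in WT, 0.0722 in *Trdn-as* KO and 0.249 in *Mettl3* KO in the others. The IgG libraries held 0.237, 0 and 0.260 RPM, at most 4 reads each, and no difference was detected at this depth (log2 difference -0.42, 95% interval -1.12 to 0.28). CTCF was 1.68 to 2.67 RPM in the 6 libraries, above every IgG library (0 to 0.260 RPM), with a log2 difference of 2.85 (95% interval 2.26 to 3.44, adjusted p = 6.93e-09 in limma).

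*Myh2* and *Myh1*, the heavy chains of type IIa and type IIx fibres, lie between *Myh3* and *Myh4* in the RefSeq promoter table, and no peak carries their names. In GRCm39 the 135737 nt between *Myh3* and *Myh4* held 3 peaks without a symbol, all within 11087 nt of the end of *Myh3*. The remaining 122279 nt, from 67004205 to 67126483, held no peak of either protein. In GRCm38 *Myh2* starts 68736 nt after the end of *Myh3*, beyond the reach of the 3 peaks if the spacing is alike in both builds, which was not tested. At the widest of the 3, from 67002489 to 67004204, CTCF was 17.0 to 22.4 RPM, and RNA polymerase II was 0.249 to 1.60 RPM beside 0.751 to 1.21 RPM of IgG.

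Among the thin-filament genes, *Tnnt3*, fast skeletal troponin T, had the clearer RNA polymerase II signal. *Tnnt3* (ENSMUSG00000061723) lies on the plus strand of chromosome 7 from 142052573 to 142069746, and the main peak, 142049707 to 142052288, reaches from 2866 to 285 nt upstream of its start. RNA polymerase II was 9.88 and 10.7 RPM (WT), 10.3 and 5.24 (*Trdn-as* KO) and 9.80 and 11.9 (*Mettl3* KO), against 1.99, 1.70 and 2.65 RPM of IgG. All 6 libraries were above all 3 IgG libraries, the lowest being the *Trdn-as* KO library with few reads in peaks, and the log2 difference was 2.06 (SE 0.33, adjusted p = 1.45e-07 in limma). CTCF reached 20.4 to 25.5 RPM at the same peak, which is 2582 nt long. Not divided by length, its mean was above that of 99.0% of all union peaks, and the IgG mean there above 96.3%. Per kb CTCF was 8.82 RPM, beside a median of 4.96 over the highest promoter peaks of all genes. In GRCm38 the start of *Tnnt3* lies inside another annotated gene, *Prr33*, so the peak cannot be credited to *Tnnt3* alone.

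*Tnni2* (ENSMUSG00000031097), fast skeletal troponin I, lies on the plus strand of chromosome 7 from 141995545 to 141998147. Its peak, 141994048 to 141994978, ends 567 nt upstream of the start and overlaps the 3′ end of *Syt8*, which closes at 141994133. RNA polymerase II was 1.86 and 1.358 RPM (WT), 1.16 and 0.828 (*Trdn-as* KO) and 1.82 and 1.74 (*Mettl3* KO), against 0.475, 0.577 and 0.808 RPM of IgG. The lowest library and the highest IgG library nearly met, and the log2 difference was 1.00 (SE 0.39, 95% interval 0.21 to 1.78, adjusted p = 0.0337 in limma). On the deposited scale, where IgG libraries carry the largest values per read, the same difference turned to -0.22. The call was also lost without either WT library or either *Mettl3* KO library for RNA polymerase II, or without the WT or the *Mettl3* KO IgG library, with adjusted p from 0.0546 to 0.183. CTCF was 10.5 and 11.0 RPM (WT), 10.9 and 10.9 (*Trdn-as* KO) and 13.4 and 11.1 (*Mettl3* KO), a log2 difference from IgG of 3.82 (SE 0.19).

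*Actn3*, the alpha-actinin of fast fibres, had no peak of its own. The only peak between *Ctsf* and *Zdhhc24* on chromosome 19, the stretch of GRCm39 from 4910947 to 4928695 that flanks it in GRCm38, was the promoter peak of *Zdhhc24* at 4928088 to 4929253. It reaches 608 nt upstream of the *Zdhhc24* start, and the starts of *Actn3* and *Zdhhc24* are 759 nt apart in GRCm38. RNA polymerase II at this peak was 7.86 to 14.3 RPM, beside 0.577 to 1.14 RPM of IgG, and reads that began at *Actn3* cannot be told apart there.

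*Casq1*, which encodes the calcium-storing calsequestrin of skeletal muscle, held the most RNA polymerase II per length among these genes (6.81 RPM per kb at the first peak described). It lies on the minus strand of chromosome 1 from 172037461 to 172047435 (ENSMUSG00000007122). At the peak from 172044328 to 172045514, inside the gene, RNA polymerase II was 9.55 and 9.32 RPM (WT), 6.72 and 2.71 (*Trdn-as* KO) and 8.73 and 11.4 (*Mettl3* KO), against 1.57, 2.45 and 1.99 RPM of IgG. All 6 libraries lay above the IgG libraries, the *Trdn-as* KO library with 18.6% of its reads in peaks by the smallest margin, and the log2 difference was 1.81 (SE 0.35, adjusted p = 8.18e-06 in limma). CTCF at this peak was 16.4 and 15.8 RPM (WT), 18.1 and 19.7 (*Trdn-as* KO) and 20.1 and 17.4 (*Mettl3* KO).

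The upstream peak of *Casq1*, 172047533 to 172048597, ends 98 nt before the start. Its RNA polymerase II was 7.35 and 10.0 RPM (WT), 6.00 and 4.23 (*Trdn-as* KO) and 8.20 and 6.88 (*Mettl3* KO), against 0.973, 1.33 and 1.33 RPM of IgG. The log2 difference was 2.34 (SE 0.34, adjusted p = 9.57e-09 in limma), and the targets did not overlap with IgG. The peak centred 4.9 kb inside the gene had 0.578 to 1.33 RPM and a log2 difference of 1.08 (adjusted p = 0.0410 in limma). IgG there was 0.736 (WT), 0.202 (*Trdn-as* KO) and 0.144 RPM (*Mettl3* KO), so the targets overlapped with IgG. The call held in 6 of 15 alternatives. Leaving out WT replicate 2, *Trdn-as* KO replicate 2, either *Mettl3* KO library or the *Trdn-as* KO or *Mettl3* KO IgG library ended this call, with adjusted p from 0.0626 to 0.346. The remaining peak, 166 nt long, did not pass (log2 difference 0.09, 95% interval -0.63 to 0.82).

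*Atp2a1* (ENSMUSG00000030730) lies on the minus strand of chromosome 7 from 126045030 to 126062280. Its nearer peak, 126064000 to 126065378, covers 1720 to 3098 nt upstream of the start and ends 788 nt before the 3′ end of *Sh2b1*. Signal there cannot be credited to *Atp2a1* alone. RNA polymerase II was 7.86 and 8.78 RPM (WT), 7.15 and 3.45 (*Trdn-as* KO) and 7.52 and 8.62 (*Mettl3* KO), against 0.902, 0.375 and 1.33 RPM of IgG. The groups were well separated, with a log2 difference of 2.85 (SE 0.34, 95% interval 2.17 to 3.53, adjusted p = 2.80e-11 in limma). CTCF was 2.91 to 3.89 RPM here, below RNA polymerase II in the means of all 3 genotypes. The farther peak, 126065989 to 126067010, overlaps *Sh2b1* and had 1.01 to 2.89 RPM of RNA polymerase II (log2 difference 1.83, adjusted p = 2.04e-04) and 4.70 to 6.92 RPM of CTCF.

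*Ryr1* (ENSMUSG00000030592), the calcium release channel of skeletal muscle, lies on the minus strand of chromosome 7 from 28702769 to 28824604 and had 9 peaks inside it and 2 upstream. The upstream peak nearest the start, 28825954 to 28826521, had 0 to 0.453 RPM of RNA polymerase II, beside 0.190 to 0.260 RPM of IgG. The groups overlapped, and the log2 difference was 0.01 (95% interval -0.89 to 0.92). CTCF at this peak was 3.24 to 5.14 RPM, above IgG in every library (log2 difference 3.45, adjusted p = 1.71e-11 in limma).

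The most RNA polymerase II at *Ryr1* was deep in the gene, at 28742581 to 28743228, centred 81.7 kb from the start and assigned by the table to ENSMUSG00002075339, a gene without a symbol. It was 2.62 and 3.26 RPM (WT), 0.939 and 0.644 (*Trdn-as* KO) and 3.04 and 1.82 (*Mettl3* KO), against 0.427, 0.375 and 0.519 RPM of IgG. All 6 libraries were above the IgG libraries (log2 difference 1.64, SE 0.39, adjusted p = 3.61e-04 in limma), and the *Trdn-as* KO libraries were the lowest. The most CTCF was at 28738645 to 28740009, with 16.0 and 14.4 RPM (WT), 14.0 and 17.4 (*Trdn-as* KO) and 14.5 and 13.0 (*Mettl3* KO). RNA polymerase II at that CTCF peak was 1.29 to 2.17 RPM, and its log2 difference of 0.57 from IgG did not pass (adjusted p = 0.233). The *Ryr1* peak called lower than IgG, centred 76.9 kb from the start, had 0 to 0.0845 RPM of RNA polymerase II, at most 1 read a library, beside 0.237, 0.577 and 0 RPM of IgG (log2 difference -0.87, adjusted p = 0.0324). Without WT replicate 2, either *Trdn-as* KO library or the WT or *Trdn-as* KO IgG library it was not called, with adjusted p from 0.0726 to 0.336.

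Summing all peaks of a gene gave 1 value per library and a test over libraries alone. An exact one-sided permutation test, with labels exchanged within each genotype, has 27 arrangements and cannot go below p = 0.037, and 14 such tests were run. RNA polymerase II reached that smallest p for *Tnni2*, *Tnnt3*, *Casq1* and *Atp2a1*, with means of 2.36, 4.29, 4.43 and 7.19 times the IgG mean. It was not above IgG for *Ryr1* (1.34 times, exact p = 0.148), *Myh3* (0.533 times, exact p = 1) or *Myh4* (0.414 times, exact p = 0.926). Over the peaks that carry the symbol, the same test reached its smallest p for RNA polymerase II in 83.1% of the 13979 genes and for CTCF in 96.2%, beside 4 and 7 of these 7. The peaks were themselves called in the ChIP libraries, so a sum above IgG is in part fixed by their choice. CTCF reached the smallest exact p for all 7 genes, with 7.14 times the IgG mean at *Casq1*, 7.54 at *Atp2a1*, 9.48 at *Ryr1*, 10.0 at *Tnnt3*, 12.2 at *Myh3*, 13.8 at *Myh4* and 18.2 at *Tnni2*.

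Within single genotypes, the summed RNA polymerase II of each library was set against the upper end of the 95% Poisson interval of its own IgG library, which covers counting error only. *Casq1*, *Tnnt3* and *Atp2a1* were above it in 6 of 6 libraries, hence in all 3 genotypes. *Tnni2* was above it in 4 of 6, and both *Trdn-as* KO libraries were below. The *Trdn-as* KO IgG value of *Tnni2* rests on 3 reads, and its interval ended at 1.66 RPM, beside 0.953 RPM in WT. *Ryr1* was above it in 3 of 6, with 5.83 and 6.97 RPM in WT over 2.82 RPM of IgG (interval 2.09 to 3.78), 4.33 and 3.17 RPM in *Trdn-as* KO under 4.97 RPM of IgG (interval 3.22 to 7.23) and 5.09 and 4.06 RPM in *Mettl3* KO over 3.17 RPM of IgG (interval 2.04 to 4.74), only the first of which cleared the interval. The *Trdn-as* KO IgG sum for *Ryr1* rests on 26 reads. Over the 2 upstream peaks that carry its symbol, *Ryr1* was above the interval in 0 of 6 libraries, with 0.837 times the IgG mean (exact p = 0.815). *Myh3* and *Myh4* were above it in 0 of 6 libraries.

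**Figure D2:**
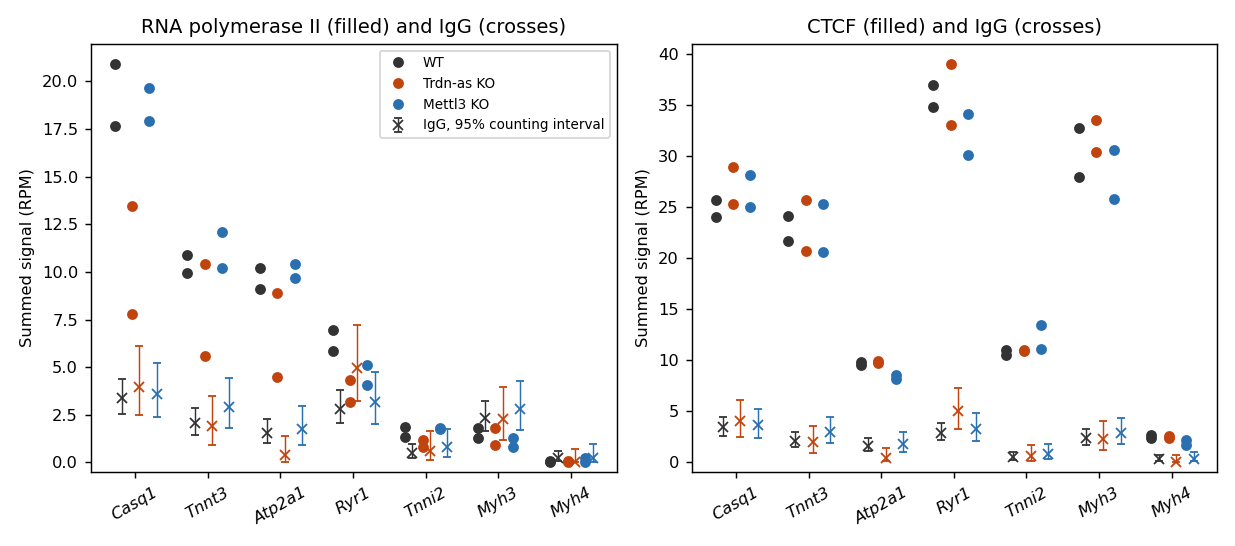
The y axes give the RPM summed over all peaks of a gene for RNA polymerase II and CTCF (filled circles, 1 per library) and IgG (crosses with 95% counting intervals), coloured by genotype. For RNA polymerase II all circles of *Casq1*, *Tnnt3* and *Atp2a1* lie above their IgG interval and none of *Myh3* and *Myh4* does, while for CTCF all circles of the 7 genes do.

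Per kb of peak, the cardiac counterparts carried more RNA polymerase II, apart from calsequestrin. For each gene the peak within 5000 nt of its start with the most RNA polymerase II was divided by its length, and the values by pair are RPM per kb. The counterpart peaks were longer in sum. The 7 genes had 12.4 to 34.6 RPM in sum (1.55 to 4.33 per kb) and the 8 counterparts 800 to 2265 RPM (8.49 to 24.0 per kb). The part of peak length in this comparison was not tested. The counterpart was higher in 6 of 6 libraries for 6 of 7 pairs. *Atp2a2*, the cardiac calcium pump, was 2.76 to 3.65 times as high as *Atp2a1* within a library (8.99 to 23.2 against 2.50 to 6.37). *Tnnt2* was 3.18 to 4.91 times as high as *Tnnt3*. *Tnni3* had 3.40 to 8.82 against 0.889 to 2.00 at *Tnni2*, and *Myh7*, the slow and beta-cardiac myosin, 7.99 to 21.1 against 0.0942 to 0.740 at *Myh3*. No fold is given for these pairs, because *Tnni2* was not above the IgG interval in every library and *Myh3* was not above IgG.

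*Ryr2* had 5.90 to 13.4 RPM per kb against 0 to 0.797 at the upstream peak of *Ryr1*, and *Myh6*, the alpha-cardiac myosin, 10.6 to 31.7 against 0 to 0.677 at *Myh4*. Both ranges were apart. *Casq2* and *Casq1* were not, with 3.769 to 11.51 (median 7.99) and 2.29 to 9.63 (median 7.61) RPM per kb, *Casq2* being higher in 4 of 6 libraries. The 2 WT libraries were the exceptions, where *Casq1* had 8.04 and 7.86 and *Casq2* 6.67 and 7.39. The ratio of *Casq2* to *Casq1* ranged from 0.829 to 1.65. The *Casq1* peak is 1187 nt long and the *Casq2* peak is longer, so their whole-peak levels are not alike.

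**Figure D3:**
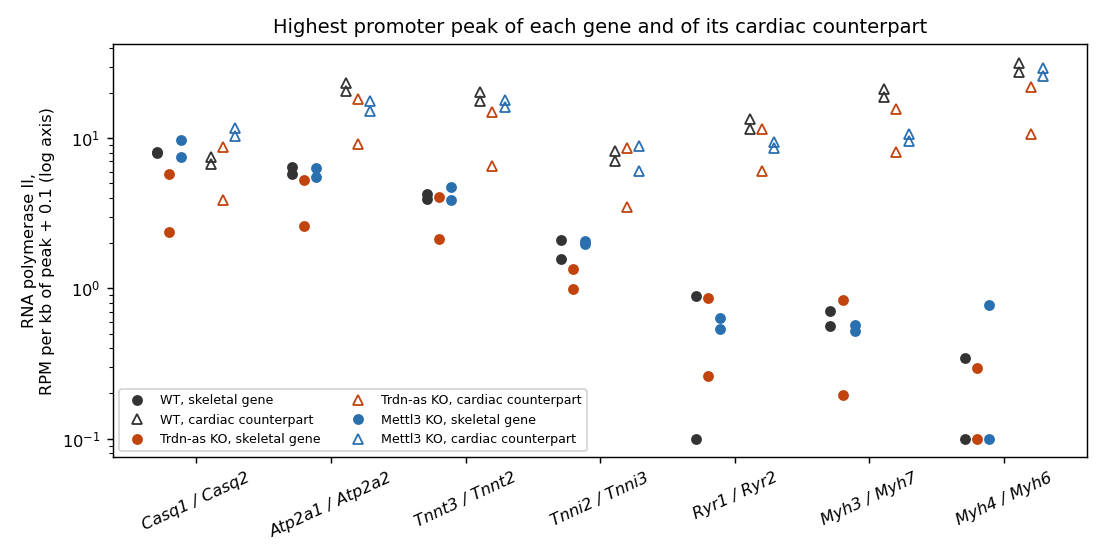
The log axis gives RNA polymerase II in RPM per kb of peak plus 0.1 at the highest promoter peak of each skeletal gene (filled circles) and its cardiac counterpart (open triangles), 1 symbol per library. The 2 calsequestrins overlap, with *Casq1* at 2.29 to 9.63 and *Casq2* at 3.769 to 11.51 before the 0.1 is added, and in every other pair the counterpart is higher in each library.

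Among the 13979 genes with a promoter peak, 35.7% had less RNA polymerase II per kb at their highest peak than *Casq1*, 29.6% less than *Atp2a1*, 23.2% less than *Tnnt3* and 14.1% less than *Tnni2*. For *Myh3*, *Ryr1* and *Myh4* these shares were 5.32%, 5.04% and 1.21%. By comparison they were 97.0% for *Myh6*, 81.3% for *Atp2a2* and 40.4% for *Casq2*. The order for CTCF was another one. The median of the 7 genes was 8.82 RPM per kb of CTCF and 1.57 of RNA polymerase II, that of the 8 counterparts 2.72 and 14.7, and that of all genes 4.96 and 10.1. *Atp2a1* stood apart within the 7, with 5.24 RPM per kb of RNA polymerase II and 2.49 of CTCF, whereas the other 6 had more CTCF than RNA polymerase II at this peak.

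A wider list of 38 skeletal muscle genes runs from *Acta1* and *Ckm* to the regulators *Myod1* and *Pax7*. It includes genes also transcribed in heart, such as *Trdn*, so it does not give a level for genes of skeletal muscle alone. Its summed RNA polymerase II was 281 to 648 RPM, beside 12.4 to 34.6 RPM for the 7 genes. Promoter peaks were found for 25 of the 38, of which 18 had RNA polymerase II and 21 CTCF above IgG, with median log2 differences of 2.29 and 1.86. Over all 13979 genes the highest promoter peak was above IgG for RNA polymerase II in 84.1% and for CTCF in 96.7%, with medians of 3.11 and 2.08. All 8 cardiac counterparts had both above IgG, with median log2 differences of 3.94 (RNA polymerase II) and 1.62 (CTCF). Each gene was counted once in these lists, by whichever of its promoter peaks had the highest polymerase level, so they are not counts over all peaks as for the 25.

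No difference between genotypes in RNA polymerase II was called at these genes. Genotypes were compared by limma on log2(deposited value + 1) over the 6 libraries of a target, leaving out peaks that did not reach 10 in 2 or more of them, so that 10 of the 25 peaks were tested. In *Trdn-as* KO against WT 0 of 10 were called, against 0.304% of all tested peaks, and 2 had an unadjusted p below 0.05, against 7.70% of all tested peaks. In *Mettl3* KO against WT it was 0 of 10, against 1.19%, and 0 had an unadjusted p below 0.05, against 15.5%. Between the 2 KO genotypes it was 0 of 10, against 1.5%, and again 2 had an unadjusted p below 0.05, against 17.9%. The shares of all peaks called depend on the processing. Over other scalings, filters, pseudocounts and fits, the number called was 2 to 269 in place of 160 in *Trdn-as* KO against WT, 0 to 4861 in place of 629 in *Mettl3* KO against WT and 1 to 1475 in place of 790 between the KO genotypes. The *Mettl3* KO and *Trdn-as* KO comparisons with WT share the WT libraries.

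The 2 peaks with an unadjusted p below 0.05 in *Trdn-as* KO were the inner ones of *Ryr1* and *Casq1*. At the *Ryr1* peak 81.7 kb from the start the deposited values were 31 and 36 (WT), 13 and 14 (*Trdn-as* KO) and 40 and 22 (*Mettl3* KO). Both *Trdn-as* KO libraries were below the other 4, but the log2 fold changes of -1.25 against WT (95% interval -2.08 to -0.42, adjusted p = 0.317) and -1.08 against *Mettl3* KO (95% interval -1.91 to -0.25, adjusted p = 0.158) did not pass the limma test. At the *Casq1* peak inside the gene the values were 113 and 103 (WT), 93 and 59 (*Trdn-as* KO) and 115 and 138 (*Mettl3* KO). *Trdn-as* KO was again the lowest group, with log2 fold changes of -0.54 against WT (95% interval -1.05 to -0.03, adjusted p = 0.625) and -0.76 against *Mettl3* KO (95% interval -1.27 to -0.25, adjusted p = 0.108). The limma call appeared when the first *Trdn-as* KO library was left out, which leaves the one with 18.6% of its reads in peaks (-0.86, adjusted p = 0.0483, and -1.08, adjusted p = 0.00580), and the shares of all tested peaks called there were 3.62% and 18.1%. Without that second library the values were -0.21 (adjusted p = 0.802) and -0.43 (adjusted p = 0.396), and on RPM with all libraries -1.10 (adjusted p = 0.328) and -1.18 (adjusted p = 0.321).

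The main *Myh3* peak had the largest fold change of the 10 tested peaks between the KO genotypes, at values near the filter. Its RNA polymerase II values were 4 and 6 (WT), 10 and 12 (*Trdn-as* KO) and 8 and 0 (*Mettl3* KO), so it was tested through the *Trdn-as* KO libraries alone, and it was not above IgG. The log2 fold changes were 1.02 in *Trdn-as* KO against WT (95% interval -1.11 to 3.14, adjusted p = 0.901 in limma), -0.98 in *Mettl3* KO against WT (95% interval -3.10 to 1.14, adjusted p = 0.689) and 1.99 between the KO genotypes (95% interval -0.13 to 4.12, adjusted p = 0.313). These intervals include 0 and span changes in either direction.

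The main *Tnnt3* peak, the nearer *Atp2a1* peak, the upstream *Casq1* peak and the *Tnni2* peak had smaller log2 fold changes. The values at *Tnnt3* were 117 and 118 (WT), 142 and 114 (*Trdn-as* KO) and 129 and 144 (*Mettl3* KO). Its log2 fold changes against WT were 0.11 in *Trdn-as* KO (95% interval -0.35 to 0.58) and 0.21 in *Mettl3* KO (95% interval -0.25 to 0.68). *Atp2a1* had 93 and 97 (WT), 99 and 75 (*Trdn-as* KO) and 99 and 104 (*Mettl3* KO), with -0.14 (95% interval -0.65 to 0.37) and 0.09 (95% interval -0.42 to 0.60). The upstream *Casq1* peak changed by -0.17 (95% interval -0.68 to 0.35) and -0.05 (95% interval -0.57 to 0.46), and *Tnni2* by -0.09 and 0.29, each with an SE of 0.45. The farther *Atp2a1* peak changed by 0.54 and 0.50, the *Casq1* peak 4.9 kb inside the gene by 0.27 and 0.46 and the CTCF-rich *Ryr1* peak by 0.29 and -0.43, with adjusted p from 0.624 to 0.968 in limma. On RPM in place of the deposited scale, the median of all tested RNA polymerase II peaks moved by -0.54 in *Trdn-as* KO against WT, -0.13 in *Mettl3* KO against WT and -0.39 between the KO genotypes, so mean levels in RPM are lower in *Trdn-as* KO for most peaks. Its second library held 18.6% of its reads in peaks and its first 35.5%, beside 38.5% and 42.4% in WT.

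In CTCF 20 of the 25 peaks were tested, and 1 peak inside *Ryr1* was called. It was higher in *Trdn-as* KO than in WT (1 of 20 higher, against 0.348% of all tested peaks, or 0.587% in either direction) and than in *Mettl3* KO (1 of 20, against 0.948%, or 1.37% in either direction). In *Mettl3* KO against WT 0 of 20 were called by limma, against 0.185%, and 2 had an unadjusted p below 0.05, against 15.7% of all tested peaks. The numbers with an unadjusted p below 0.05 were 3 in *Trdn-as* KO against WT, against 10.2%, and 7 between the KO genotypes, against 18.8%. Over the same alternatives the number of all tested CTCF peaks called was 37 to 494 in place of 356 in *Trdn-as* KO against WT, 0 to 761 in place of 112 in *Mettl3* KO against WT and 26 to 1273 in place of 828 between the KO genotypes.

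The called peak, 28732150 to 28732508 on chromosome 7, lies 92.3 kb from the *Ryr1* start and is assigned by the table to ENSMUSG00000109017. Its deposited CTCF values were 11 and 11 (WT), 31 and 25 (*Trdn-as* KO) and 10 and 9 (*Mettl3* KO), and in RPM 1.34 and 1.358, 3.45 and 3.04, and 1.35 and 1.01. Both *Trdn-as* KO libraries were above the other 4. The fold change was 2.40 against WT (log2 1.27, SE 0.22, 95% interval 1.75 to 3.30 in fold, adjusted p = 0.00663 in limma) and 2.75 against *Mettl3* KO (log2 1.46, 95% interval 2.00 to 3.78 in fold, adjusted p = 0.00134). RNA polymerase II at this peak was 0 to 2 deposited units. The call was lost without any 1 of the 6 libraries, *Mettl3* KO and WT ones included, with adjusted p from 0.2998 to 0.615 against WT and from 0.169 to 0.517 against *Mettl3* KO. It was also lost when all peaks were tested without the filter (adjusted p = 0.185 and 0.0978) or with the 2 genotypes alone (adjusted p = 0.268 and 0.162), with the same fold change. The IgG values were 10, 13 and 5, and RPM of IgG 0.237, 0.375 and 0.144.

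**Figure D4:**
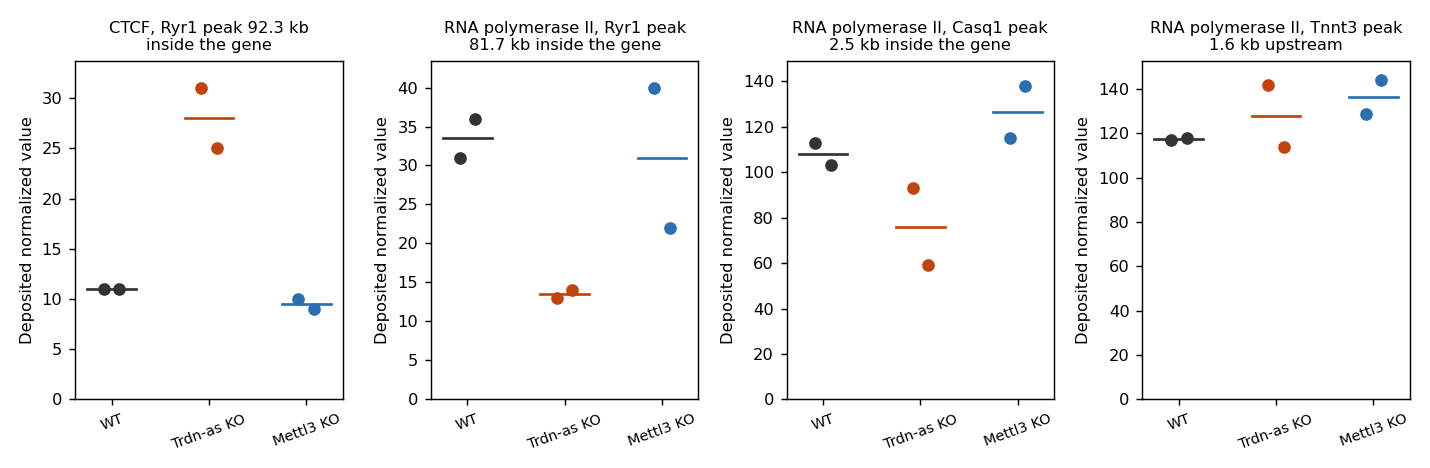
Deposited normalized values per library (points) and genotype means (lines) at 4 peaks, with axes from 0. CTCF at the *Ryr1* peak 92.3 kb inside the gene is 31 and 25 in *Trdn-as* KO against 9 to 11 in the other libraries, and RNA polymerase II at *Tnnt3* is 114 to 144 in all of them.

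No other peak was called for CTCF. At the CTCF-rich *Casq1* peak *Trdn-as* KO differed from WT by 0.30 on the log2 scale (95% interval 0.13 to 0.48, adjusted p = 0.171) and *Mettl3* KO by 0.21 (95% interval 0.03 to 0.39, adjusted p = 0.236). *Tnnt3* changed by 0.08 (95% interval -0.10 to 0.27) and -0.02 (95% interval -0.20 to 0.16), *Tnni2* by 0.10 (95% interval -0.11 to 0.32) and 0.18 (95% interval -0.04 to 0.39), and the main *Myh3* peak by 0.13 (95% interval -0.11 to 0.38) and -0.08 (95% interval -0.33 to 0.16). At *Myh4* the values were 22 and 19 (WT), 21 and 21 (*Trdn-as* KO) and 16 and 15 (*Mettl3* KO). *Mettl3* KO was the lowest group there, with -0.38 against WT (95% interval -0.78 to 0.02, adjusted p = 0.343).

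Of the 38 other skeletal muscle genes, 20 were tested in the polymerase libraries and 21 in the CTCF libraries, and 0 were called by limma in any of the 3 comparisons of either, against 0.304% to 1.5% of all tested peaks for polymerase and 0.185% to 1.37% for CTCF. Unadjusted p-values below 0.05 were found for 0 to 3 of them per polymerase comparison, against 7.70% to 17.9% of all tested peaks, and 1 to 2 per CTCF comparison, against 10.2% to 18.8%. The list includes *Trdn* by promoter peaks alone, so the polymerase change that the paper reports inside this gene lies outside these counts. Of the 8 cardiac counterparts, 1 was called for RNA polymerase II in *Trdn-as* KO against WT, 2 in *Mettl3* KO against WT and 2 between the KO genotypes, and for CTCF 0, 1 and 1, beside the same shares of all tested peaks. In *Mettl3* KO against WT RNA polymerase II rose at *Casq2*, from 233 and 241 to 396 and 410 (log2 0.76, adjusted p = 0.0195), and fell at *Myh7*, from 4531 and 4807 to 2586 and 2617 (log2 -0.84, adjusted p = 3.65e-08). *Myh6* was lower in *Trdn-as* KO, with 9901 and 7625, than in WT, with 10654 and 11527 (log2 -0.35, adjusted p = 0.0291), the lowest value being that of the library with few reads in peaks. Between the KO genotypes, *Trdn-as* KO was higher at *Myh7* (log2 0.62, adjusted p = 5.28e-05) and lower at *Myh6* (log2 -0.39, adjusted p = 0.00409). CTCF at *Myh6* was 299 and 289 (WT), 340 and 322 (*Trdn-as* KO) and 455 and 480 (*Mettl3* KO), higher in *Mettl3* KO than in WT (log2 0.67, adjusted p = 6.85e-05) and than in *Trdn-as* KO (log2 of *Trdn-as* KO over *Mettl3* KO -0.50, adjusted p = 1.48e-04). The label of the *Mettl3* KO group alone names a Cre driven by the *Myh6* promoter. Reads from that transgene's promoter and from *Myh6* itself cannot be told apart. Each of these 7 calls kept its direction but was held by limma in only 2 to 4 of 7 alternatives, and in 0 to 2 of 6 fits without 1 library. Fibroblast markers also moved with the *Mettl3* KO, where 3 of 4 (*Col1a1*, *Col3a1*, *Pdgfra*) had more RNA polymerase II than in WT, and their summed level was 82.3 to 91.8 RPM, against 41.8 to 47.3 in WT and 24.2 to 54.7 in *Trdn-as* KO. Their part in the values of the skeletal genes was not tested.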

How the data were processed

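Reads were trimmed (Trimmomatic 0.39) and aligned to GRCm39 (mm39) by the authors with STAR 2.7.11b, who removed duplicates (Picard 3.1.1), called peaks against input and merged them over all samples. They counted reads with featureCounts and normalized with DESeq2 1.36.0. The deposited values are this normalized signal per peak and library, rounded to whole numbers, not read counts. RPM was the value over the estimated value of 1 read and the uniquely mapped reads stated in the study's reporting summary, which does not say whether duplicates are in that total.

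Peaks were fitted with limma 3.58.1 (R 4.3.3), using moderated variances with a trend on the level, and p-values were adjusted by Benjamini-Hochberg (threshold 0.05). The target against IgG fit used log2(RPM + 0.2) of all 101256 peaks, and the genotype fit log2(value + 1) of the 52655 (RNA polymerase II) or 60649 (CTCF) peaks at 10 or more in at least 2 libraries. Other steps used Python 3.11.15, pandas 2.3.3, numpy 2.4.6, scipy 1.17.1 and matplotlib 3.10.9. The scripts were tested on simulated data. The members, the lists and the rule for named peaks (per gene those with the most RNA polymerase II and CTCF, and every called peak) were chosen with earlier results of these data known. The alternatives were other scalings, filters, pseudocounts, a replicate block and leaving out each library. The replicate numbers do not pair the libraries. Between genotypes the correlation of deviations was -0.05 to 0.03, apart from CTCF in WT and *Trdn-as* KO. There it was -0.42, a crosswise link between replicates 1 and 2. A count of 0 allows up to 3 reads, 0.248 to 0.398 RPM for RNA polymerase II, and this limit and the Poisson intervals cover counting error only.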

Additional observations from a re-analysis of the deposited data

How the results depend on the processing

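Depth limits *Myh4*, where 0 to 4 reads a library set the RNA polymerase II and IgG values. On the deposited scale in place of RPM, which moved the median of all peaks by -0.62 for RNA polymerase II and -1.15 for CTCF, 3 of the 25 peaks were above IgG for RNA polymerase II instead of 8 and 14 for CTCF instead of 24. The 3 were the upstream *Casq1* peak, the nearer *Atp2a1* peak and the main *Tnnt3* peak, and *Tnni2* turned to -0.22. Of all called peaks, 97.3% were higher than IgG for RNA polymerase II on RPM and 74.6% on the deposited scale (99.9% and 85.4% for CTCF). Without single libraries these counts were 6 to 8 and 23 to 24.

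The 1 CTCF call in *Trdn-as* KO against WT and against *Mettl3* KO became 0 without the filter and with only the 2 genotypes, and 0 to 0 without single libraries. For RNA polymerase II the counts were 0 to 1 without single libraries in both comparisons, the 1 being *Casq1*. The share of higher calls among all called peaks changed from 59.6% to 30.3% on RPM in *Mettl3* KO against WT and from 23.7% to 10.7% between the KO genotypes (37.6% with size factors recomputed) for RNA polymerase II. For CTCF it changed from 59.3% to 43.2% in *Trdn-as* KO against WT and from 69.4% to 42.5% between the KO genotypes on RPM (44.7% recomputed), and from 53.6% to 66.6% recomputed in *Mettl3* KO against WT. Over all tested peaks, the calls in *Trdn-as* KO against WT, *Mettl3* KO against WT and between the KO genotypes were 160, 629 and 790 for RNA polymerase II. They were 104, 33 and 206 on RPM, 269, 2179 and 1475 with size factors recomputed, 2, 0 and 1 without the filter, and 19 to 1908, 0 to 4655 and 12 to 9539 without single libraries. With only the 2 genotypes there were 4861 in *Mettl3* KO against WT. For CTCF they were 356, 112 and 828, then 494, 761 and 1273 recomputed, 37, 0 and 26 with only the 2 genotypes, 236, 2 and 376 with the replicate block, and 1 to 38, 0 to 0 and 1 to 26 without single libraries. The cause of these changes was not tested.

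With a replicate block the *Ryr1* CTCF call held (log2 1.27 with adjusted p = 0.0204 and 1.46 with adjusted p = 0.00570), and no other member call changed. A fit of WT and *Trdn-as* KO alone with the CTCF libraries paired crosswise, added after the data had been seen, gave 0 calls at these genes and over all peaks, and at these genes the 2 genotypes alone gave 0 without it. The sums over gene peaks (4 genes for RNA polymerase II, 7 for CTCF) and the comparison per length (6 of 7 pairs) kept their counts. With only the peaks that carry the symbol, *Ryr1* went from 1.34 to 0.837 times the IgG mean of RNA polymerase II, and from 3 to 0 libraries above the IgG interval. Among single peaks, 173 alternative values kept their direction and side of the threshold, 52 were weaker, 2 stronger and 1 reversed. The count test edgeR was not run, because whole reads could not be recovered from the rounded values of every library. In the CTCF libraries 1 read was worth 0.284 to 0.458, so several read counts share a value.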
